A study of Mus musculus with 2 samples.

Results

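The transcripts described here are 10 genes of the TGF-β receptor and SMAD pathway in mouse Th17 cells that lack Malat1: the ligand gene Tgfb1, the receptor genes Tgfbr1 and Tgfbr2, the SMAD genes Smad2, Smad3, Smad4 and Smad7, and the inhibitor genes Ski, Skil and Smurf2. They were taken by gene name from the authors' deposited table of 16385 genes, and all 10 were found there, each in 1 entry. The samples are 2 RNA-seq libraries of Malat1 knockout Th17 cells, which the submitters call independent biological replicates. Naive CD4+ T cells of the C57BL/6 strain were cultured for 72 h with 0.1 ng/mL TGF-β and 20 ng/mL IL-6, in plates pre-coated with hamster IgG, with 0.25 µg/mL anti-CD3ε and 1 µg/mL anti-CD28. Wild-type Th17 cells, the other arm of the authors' comparison, belong to a different series, so genotype and series cannot be told apart. Both knockout titles name Malat1, while the treatment label of replicate 2 names Malat2. Malat1 itself is not analysed here, and the genotype rests on the titles.

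TGF-β is secreted as a latent complex and, once released, binds the type II receptor, which then phosphorylates the type I receptor. The type I receptor phosphorylates SMAD2 and SMAD3, which join SMAD4 and enter the nucleus to regulate genes. SMAD7, the ubiquitin ligase SMURF2 and the corepressors SKI and SnoN restrain this signal. In CD4+ T cells TGF-β together with IL-6 directs Th17 differentiation, and TGF-β without IL-6 favours regulatory T cells.

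The libraries held 21554852 counts in replicate 1 and 26916169 counts in replicate 2, and the 10 genes had from 371 to 5779 counts in a library. Markers of CD4+ T cells were abundant in the knockout libraries, with all 6 measured markers at mean normalized counts between 3341 and 14216, and all 7 Th17 markers lay between 1791 and 61867. B cell markers stood at 3.73 or less. Of CD8 T cell markers Cd8a stood at 4.42 and Cd8b1 at 280, of myeloid markers Cd14 at 57.7 and the other 4 at 3.45 or less, and of endothelial and platelet markers Pecam1 at 690, Itga2b at 46.1 and the other 3 at 1.83 or less. Many markers of other tissues were high in the implied wild-type means. The normalized counts of 6 kidney tubule genes summed to 19.3 and 27.3 in the knockout libraries, against an implied wild-type sum of 30528. Those of 7 fibroblast and smooth muscle genes summed to 109 and 90.3 in the knockout libraries, against an implied wild-type sum of 15187. Umod, Miox and Col1a2 had 0 counts in both knockout libraries. Dcn, of the fibroblast genes, stood at 55.2 in knockout, against an implied wild-type mean of 55.9. Of the endothelial and platelet markers, Kdr stood at 1.14 in knockout, against an implied wild-type mean of 1219. The implied wild-type means of the others were 639 for Pecam1, 44.3 for Itga2b, 6.22 for Cdh5 and 2.06 for Pf4. An implied wild-type value is what the authors' mean over 4 libraries and both knockout values leave for the wild-type mean. It has no spread, since the wild-type columns were not used here. At an adjusted p of 0.05 (authors' DESeq2), 0 of the 6 kidney tubule genes and 1 of the 7 fibroblast and smooth muscle genes were lower. Over all genes 0.152% were lower. Standard errors of the log2 fold change were 4.68 for Umod and for Col1a2, and 1.47 for Actg2, the gene called. How evenly the wild-type libraries held these transcripts is not known here. No fold change could be recomputed with a wild-type library left out.

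None of the 10 transcripts passed the authors' test in knockout against wild-type Th17 cells. Of the 10 genes, 0 rose and 0 fell at an adjusted p of 0.05, and 0 were under an unadjusted p of 0.05, by the authors' DESeq2 Wald test in the authors' deposited table. Over all genes the adjusted p called 0.159% (23 of 14481), with 0.00691% rising and 0.152% falling, and the unadjusted p called 2.11% (346 of 16385), so a lack of calls among 10 genes differs little from the background. The adjusted p of each of the 10 genes was 1.00 (DESeq2, Benjamini-Hochberg). The lowest fold changes were those of Tgfbr1 and Smurf2, and the highest were those of Smad3 and Tgfbr2.

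Tgfbr1, Smurf2 and Tgfbr2 had the smallest p-values of the 10, and their promoters are shown as the DNA just before these transcripts. The sequences are the 250 bases before the RefSeq start (GRCm38.p6), 5′ to 3′ on the strand of the gene, with each GTCT or its reverse complement AGAC, the core motif bound by SMAD3 and SMAD4, in capitals. Tgfbr1 lies at chr4:47352972-47353221 on the + strand, Tgfbr2 at chr9:116175364-116175613 on the - strand and Smurf2 at chr11:106920716-106920965 on the - strand.
Tgfbr1: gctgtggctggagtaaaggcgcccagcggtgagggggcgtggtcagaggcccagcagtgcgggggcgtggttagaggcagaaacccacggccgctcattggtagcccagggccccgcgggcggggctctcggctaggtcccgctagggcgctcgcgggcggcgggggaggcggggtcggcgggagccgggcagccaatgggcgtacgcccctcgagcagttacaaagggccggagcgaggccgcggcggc
Tgfbr2: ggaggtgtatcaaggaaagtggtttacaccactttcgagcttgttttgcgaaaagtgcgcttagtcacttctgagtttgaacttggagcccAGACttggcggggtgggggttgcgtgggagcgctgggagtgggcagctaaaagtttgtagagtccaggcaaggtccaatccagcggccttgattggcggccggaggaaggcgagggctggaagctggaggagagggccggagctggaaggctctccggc
Smurf2: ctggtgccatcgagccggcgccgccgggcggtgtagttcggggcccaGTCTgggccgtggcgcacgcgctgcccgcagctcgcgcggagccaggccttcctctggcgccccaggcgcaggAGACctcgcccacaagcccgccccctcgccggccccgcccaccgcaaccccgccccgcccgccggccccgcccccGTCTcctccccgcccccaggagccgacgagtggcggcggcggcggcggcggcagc
RefSeq gives Tgfbr1 a second start, 32994 bases from the annotated start of the gene, whose window at chr4:47385966-47386215 is not printed. The motif occurred 0 times in the printed Tgfbr1 window and 2 times in the second, 1 time in that of Tgfbr2 and 3 times in that of Smurf2. It is common: 82.9% of 32851 RefSeq windows of this length hold at least 1 GTCT or AGAC, so its presence marks nothing particular. The longer palindrome GTCTAGAC was in 0.167% of all windows and in none of those of Tgfb1, Tgfbr1, Tgfbr2, Smad3, Ski and Smurf2, the 6 genes with an entry. Smad2, Smad4, Smad7 and Skil had no entry. A CG dinucleotide occurred 29 times in the printed Tgfbr1 window and 3 times in the second, 12 times in that of Tgfbr2 and 38 times in that of Smurf2, against a median of 6 over all windows.

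Tgfb1 encodes the ligand that T cells themselves can secrete, and it was the most abundant of the 10 transcripts. It lies on chromosome 7 from 25687002 to 25705077 (GRCm38, + strand). Its normalized counts were 4622 and 4386 in the knockout libraries, against an implied wild-type mean of 4629. One knockout library lay just below that mean and the other further below it. Its log2 fold change, knockout over wild type, was -0.039 in the authors' deposited table (SE 0.12, 95% interval -0.28 to 0.20). Of the 10 genes it had the narrowest interval, which runs from 0.826-fold to 1.15-fold in the authors' deposited table.

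The receptor genes had fold changes of opposite sign. Tgfbr1, on chromosome 4 from 47353222 to 47414931, encodes the type I receptor kinase that phosphorylates SMAD2 and SMAD3. Its normalized counts were 359 and 439 in the knockout libraries, against an implied wild-type mean of 598. Both knockout libraries lay below the implied mean, and on the log2 scale they were further apart from each other than those of the other 9 genes. The authors' deposited table gives Tgfbr1 a log2 fold change of -0.56 (SE 0.34, 95% interval -1.23 to 0.11). As a model estimate this is 0.677-fold, with an unadjusted p of 0.0996 by the authors' DESeq2 Wald test. That p ranks 685 among the 16385 genes, the 4.18% with the smallest p. Small p-values were scarce in this fit, with 2.11% of all genes under an unadjusted 0.05, so a high rank does not mean a small p.

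Tgfbr2 encodes the type II receptor, which binds the ligand first. It lies on chromosome 9 from 116084293 to 116175360 (- strand). Its normalized counts were 2688 and 2617 in the knockout libraries, against an implied wild-type mean of 2331. Both knockout libraries lay above the implied mean and close to each other. Tgfbr2 had a log2 fold change of 0.19 in the authors' deposited table (SE 0.16, 95% interval -0.12 to 0.49), with an unadjusted p of 0.229. Per kb of exon, Tgfbr2 stood 5.98-fold and 4.76-fold over Tgfbr1 in the knockout libraries, against 3.11-fold in the implied wild-type means. This difference in ratio was not tested, since the spread of the wild-type ratio is not known here.

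**Figure D1:**
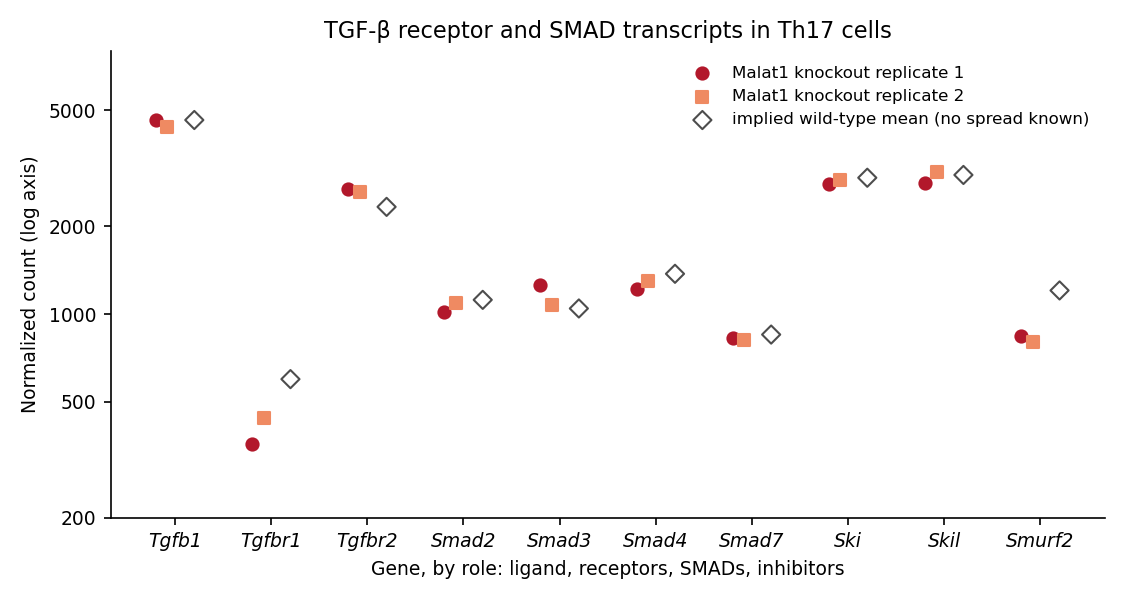
Normalized counts (log axis) of the 10 genes, ordered by role, in each Malat1 knockout library (filled symbols) and the implied wild-type mean (open diamonds, with no spread). Tgfbr1 and Smurf2 lie below the open diamond in both knockout libraries, and Tgfbr2 lies above it in both.

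Smad2 and Smad3 encode the SMADs that the type I receptor phosphorylates. Smad2, on chromosome 18 from 76241580 to 76310963, had normalized counts of 1020 and 1090 in the knockout libraries, against an implied wild-type mean of 1119. Smad3, on chromosome 9 from 63646767 to 63757994, had 1258 and 1077 in the knockout libraries, against 1045 in the implied wild-type mean. Both libraries lay below the implied mean for Smad2 and above it for Smad3, with replicate 2 close to it in each case. By the authors' deposited table, Smad2 had a log2 fold change of -0.083 (SE 0.23, 95% interval -0.53 to 0.36) and Smad3 one of 0.20 (SE 0.34, 95% interval -0.47 to 0.87). Smad3 stood 1.95-fold and 1.57-fold over Smad2 per kb in the knockout libraries, against 1.48-fold in the implied wild-type means, a difference that was not tested.

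Smad4 encodes the partner that the phosphorylated SMADs share with those of BMP signalling, and lies on chromosome 18 from 73639009 to 73703780. Its normalized counts were 1219 and 1296 in the knockout libraries, against an implied wild-type mean of 1374. Both lay below the implied mean. The authors' deposited table gives it a fold change of -0.12 (SE 0.21, 95% interval -0.54 to 0.29) on the log2 scale. Per kb, Smad4 stood 2.83-fold and 2.81-fold over Smad2 in the knockout libraries, against 2.91-fold in the implied wild-type means. Among the 5 within-pathway ratios computed here this was the one most alike in both libraries.

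Smad7, Ski and Skil are inhibitors, and Smad7 and Skil are also induced by TGF-β itself in many cell types. Smad7 encodes the inhibitory SMAD that occupies the type I receptor, on chromosome 18 from 75367529 to 75395935. Its normalized counts were 829 and 814 in the knockout libraries, against 850 in the implied wild-type mean, with both libraries just below it. Ski encodes a corepressor of SMAD target genes, on chromosome 4 from 155154075 to 155222592, with normalized counts of 2792 and 2872 in the knockout libraries, against 2934 in the implied wild-type mean. Skil encodes the related corepressor SnoN, on chromosome 3 from 31095058 to 31122577. It had 2822 and 3081 normalized counts in the knockout libraries, on either side of the implied wild-type mean of 3000.

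The fold changes of these inhibitors lay near 0. On the log2 scale the authors' deposited table gives -0.018 for Smad7 (SE 0.32, 95% interval -0.65 to 0.61). For Ski it is -0.048 (SE 0.15, 95% interval -0.35 to 0.25) in the authors' deposited table. For Skil it is -0.021 (SE 0.18, 95% interval -0.38 to 0.34), again in the authors' deposited table. Its sign is not settled: Skil stood at 0.056 once a trend on GC content was subtracted, and its knockout replicate 2 alone lay 0.038 above the implied wild-type mean on the log2 scale. Skil per kb was 0.580-fold and 0.615-fold of Ski in the knockout libraries, against 0.587-fold in the implied wild-type means.

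Smurf2 encodes a ubiquitin ligase that SMAD7 brings to the receptor complex. It lies on chromosome 11 from 106820066 to 106920715 (- strand), and its exons overlap an annotated miRNA gene, Gm27322, on the same strand. Its normalized counts were 843 and 800 in the knockout libraries, against an implied wild-type mean of 1205. The knockout libraries were close together and both lay below the implied mean. Smurf2 had a log2 fold change of -0.50 in the authors' deposited table (SE 0.35, 95% interval -1.18 to 0.18). As a model estimate this is 0.709-fold, with an unadjusted p of 0.153 by the authors' DESeq2 Wald test. Tgfbr1 and Smurf2 had the largest negative values of the 10. The kidney tubule and fibroblast markers were lower in the knockout libraries too, by the sums given above, and their part in either value was not tested.

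**Figure D2:**
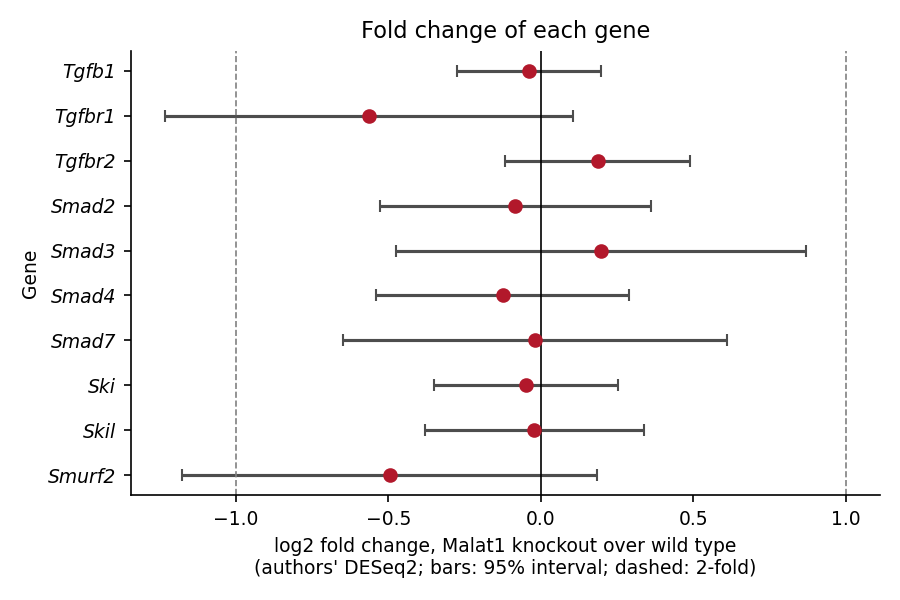
Log2 fold change of each gene, Malat1 knockout over wild type, from the authors' deposited table, with its 95% interval; dashed lines mark 2-fold in either direction. All 10 intervals hold 0, and those of Tgfbr1 and Smurf2 alone reach past 2-fold.

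How large a change the data could leave unseen differed among the genes. All 10 intervals held 0, 8 of 10 lay within 2-fold in both directions, and 6 of 10 within 1.5-fold, for the fold changes of the authors' deposited table. The 6 were Tgfb1, Tgfbr2, Smad2, Smad4, Ski and Skil. At the largest p that passed among all genes (6.70e-05), Tgfb1 would have needed a fold of 1.40 to pass, Tgfbr1 2.57, Smad3 2.58 and Smurf2 2.61, given the standard errors in the authors' deposited table. These are sizes at which a change would be called, not limits on the change present. Over all genes the authors' Wald statistic had an SD of 0.714, narrower than a standard normal, and 2.11% had an unadjusted p under 0.05. All genes include 1425 with 0 counts in both knockout libraries, and no SD was computed for genes at the level of the 10. Whether the intervals of the 10 and these folds are wider than the data require is therefore not known here.

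Standard errors were compared with those of genes of similar mean, taken within 1.5-fold of the gene's own mean over 4 libraries. The standard error of Smad3 in the authors' deposited table was 1.43 times the median of 2770 such genes, larger than in 98.1% of them. For Smurf2 it was 1.39 times the median of 2757 genes, and larger than in 97.5%. For Smad7 the ratio was 1.19. The knockout libraries of Smurf2 and Smad7 differed by -0.075 and -0.027 on the log2 scale (replicate 2 over replicate 1), so a wide spread was not seen for them within knockout. Tgfbr1, at 1.00 times its median, had a standard error typical of its level.

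The knockout libraries were also compared with each other. The median absolute log2 ratio of replicate 2 to replicate 1 was 0.082 over the 10, against 0.10 over the 10540 genes with a knockout mean of at least 50. Many of those 10540 genes lie at lower levels than the 10, where counting error is larger. Library ratios of genes of similar level were not compared. Tgfbr1 differed most, by 0.29 in favour of replicate 2, more than 89.3% of those genes. Smad3 lay on the other side, at -0.22, and Skil stood at 0.13. The 95% interval that counting error alone gives left out 0 for 4 of the 10 genes, Tgfb1, Tgfbr1, Smad3 and Skil, and held it for the other 6. Intervals of this kind cover counting error only.

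**Figure D3:**
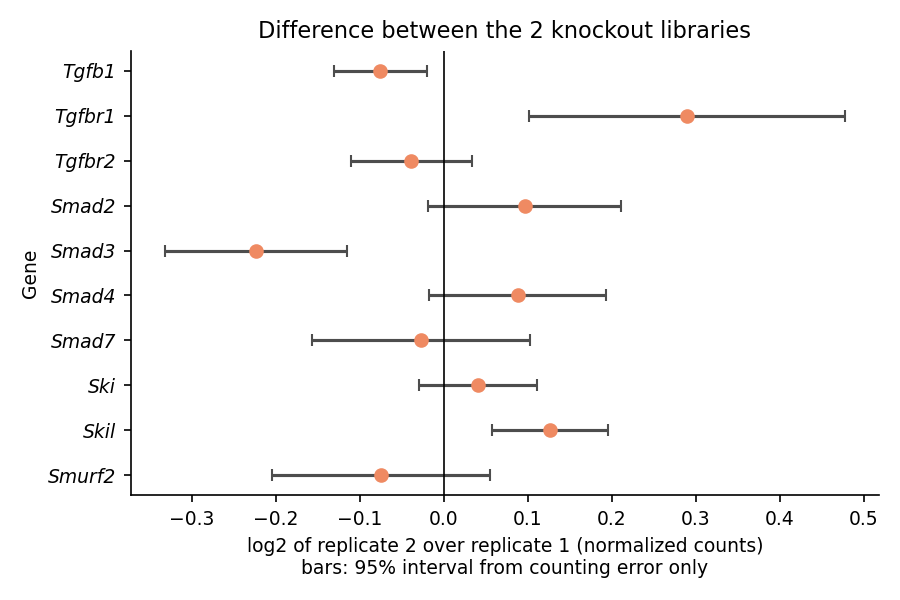
Log2 ratio of normalized counts, replicate 2 over replicate 1, for each gene in the Malat1 knockout libraries, with the 95% interval from counting error. Tgfbr1 lies farthest above 0 at 0.29 and Smad3 farthest below at -0.22.

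Levels were compared between genes as normalized counts per kb of annotated exon. Tgfb1 led with 893 ± 33.1 per kb and Ski followed with 509 ± 10.2 per kb (SD, n = 2 for each). Smad4 (339 ± 14.6), Tgfbr2 (324 ± 6.16) and Skil (304 ± 18.9) came next in normalized counts per kb (SD, n = 2 for each). Replicate values of Smad4 and Tgfbr2 overlapped, and those of the other neighbours in the order did not, although Skil replicate 2 (318 per kb) lay close to Tgfbr2 replicate 2 (319.7 per kb). Smad3 (211 ± 23.0), Smad7 (182 ± 2.41), Smurf2 (133 ± 4.89) and Smad2 (120 ± 5.66) followed in normalized counts per kb (SD, n = 2 for each). Tgfbr1 was lowest at 61.0 ± 8.64 per kb (SD, n = 2), so the type I receptor transcript was the scarcest of the set and the ligand transcript the most abundant. Among all genes with a knockout mean of at least 50 the median was 183 per kb, and 6 of the 10 lay above it. The exon length counts every annotated exon of a gene, and the isoforms used by these cells are not known, so close neighbours in this order may change places.

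**Figure D4:**
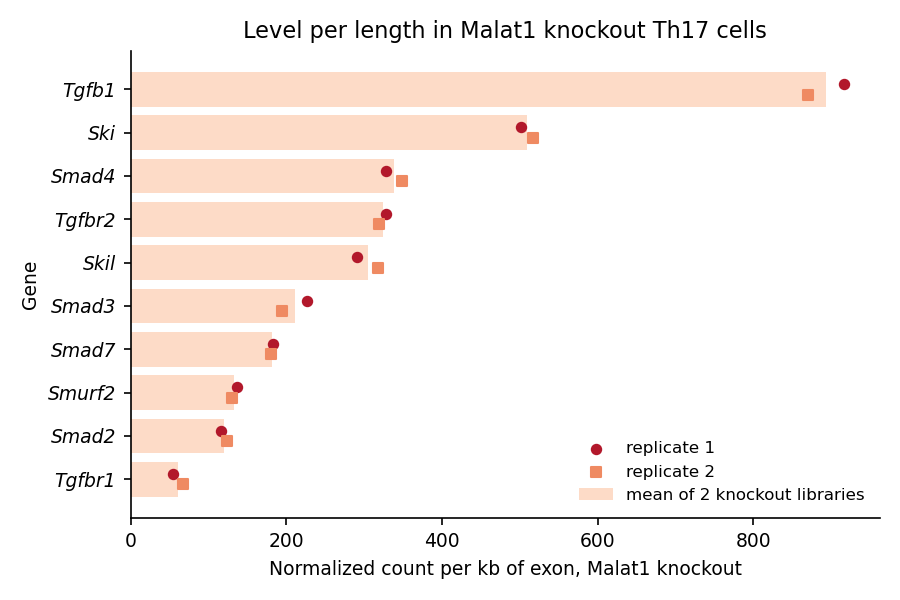
Normalized counts per kb of annotated exon in the Malat1 knockout libraries; bars are the mean of 2 libraries and points are the replicates. Tgfb1 stands at 893 per kb and Tgfbr1 at 61.0 per kb.

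Other genes of the pathway were followed in 7 lists of 97 genes in all, of which 96 were measured. By the authors' DESeq2, 0 of the 96 rose and 0 fell at an adjusted p of 0.05. At an unadjusted p under 0.05, 0 were higher and 4 lower (4.17%), where 0.391% of all genes were higher and 1.72% lower. The 4 were Bmpr2, Ltbp1, Itgb6 and Smad6. The median log2 fold change in the authors' deposited table was -0.061 over the 96 genes and -0.043 over the 10, against -0.031 over all genes. All 10 have a mean of at least 50. At that mean the median was -0.050 over the other pathway genes and -0.0032 over all genes. Of the 82 genes with a mean of at least 50, 47 had a negative fold change, against 8 of the 10 and 50.9% of all genes at that mean.

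Bmpr2, the type II receptor for BMPs, had normalized counts of 486 and 545 in the knockout libraries, against an implied wild-type mean of 1058. Both knockout libraries lay below it, and the log2 fold change in the authors' deposited table was -0.92 (SE 0.40, unadjusted p 0.0207). The other 3 were nearly absent from the knockout libraries. Ltbp1, which encodes a protein that tethers latent TGF-β to the matrix, had 1 and 2 counts, with an implied wild-type mean 90.6-fold over the knockout level (95% Poisson interval of the knockout counts 31.0 to 439). Itgb6, an integrin chain of epithelial cells that activates latent TGF-β, and Smad6, an inhibitory SMAD of BMP signalling, each had 0 counts in replicate 1 and 1 count in replicate 2. Their implied wild-type means were 71.2 and 67.0. Itgb6 and Smad6 lie below the mean set for named genes and were chosen after their values were seen. Ltbp1 reaches that mean, at 56.9 over 4 libraries, only through its implied wild-type mean of 113. These 3 genes were low in knockout along with the kidney tubule and fibroblast markers, whose part in the result was not tested.

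Among ligands and activators, 14 of the 16 genes had a mean of at least 50, and their median log2 fold change was -0.35 in the authors' deposited table, the lowest of the 7 lists. Ltbp1 is among the 14 only through its implied wild-type mean. Over all 16 genes the median was -0.35 as well. Bmp1, a protease of the matrix, stood at -1.31 (SE 0.74) and Tgfb2, another TGF-β ligand, at -1.01 (SE 0.67) by the authors' deposited table, and neither passed. Tgfb2 had 58.0 and 93.4 normalized counts in the knockout libraries, against 151 in the implied wild-type mean. Both libraries lay below it and differed from each other. The part of the tissues marked by the kidney tubule and fibroblast genes in these values and in the list median was not tested. Of the other receptors, Acvrl1, a type I receptor, stood at 0.48 (SE 0.43) and Acvr2a, an activin receptor, at -0.70 (SE 0.65), by the authors' deposited table. Of the other SMADs, Smad1 and Smad5, which carry BMP signals, stood at 0.15 (SE 0.36) and -0.15 (SE 0.38) in the authors' deposited table.

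**Figure D5:**
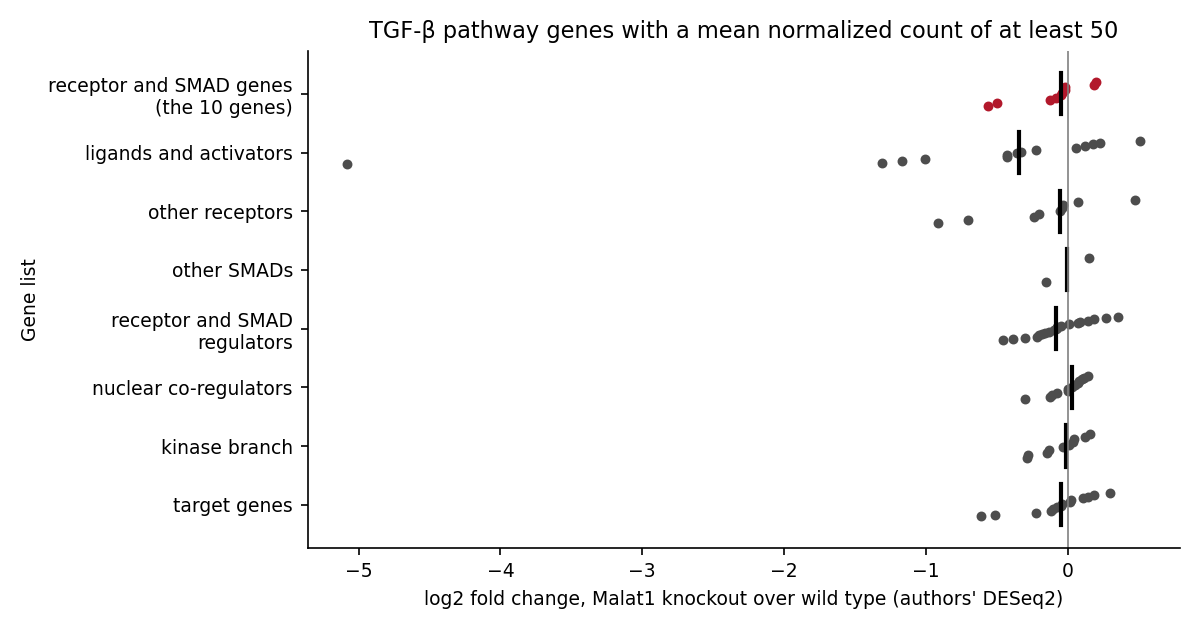
Log2 fold change, Malat1 knockout over wild type, of every gene with a mean normalized count of at least 50 in the 10 genes (top) and in 7 further pathway lists; black bars are list medians. The list of ligands and activators has the lowest median at -0.35, and its lowest point is Ltbp1 at -5.08. Ltbp1 reaches the mean of 50 only through its implied wild-type mean.

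None of the genes acting downstream passed. Of 20 regulators of receptors and SMADs, 7 had positive and 13 negative fold changes, between -0.45 and 0.35 in the authors' deposited table. Skp1a, a ubiquitin ligase subunit, was at -0.38 (SE 0.20), Strap, a receptor-associated protein, at -0.18 (SE 0.12) and Usp9x, a deubiquitinase that acts on SMAD4, at -0.21 (SE 0.16), by the authors' deposited table. The 13 nuclear co-regulators with a mean of at least 50 had a median of 0.029, and 9 of the 13 lay above 0, with Runx3 at 0.10 (SE 0.15), the deacetylase Hdac1 at 0.081 (SE 0.11) and the acetyltransferase Crebbp at -0.30 (SE 0.28), by the authors' deposited table. The 10 genes of the kinase branch had a median of -0.012, with the phosphatase subunit Ppp2r2a at -0.28 (SE 0.16), Rhoa at -0.13 (SE 0.11) and Rock1 at -0.15 (SE 0.14) in the authors' deposited table.

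Target genes of TGF-β, 19 measured of 20, gave 0 calls. Their median log2 fold change in the authors' deposited table was -0.043 over the 14 genes with a mean of at least 50 and -0.075 over all 19. Cdkn1a, a cell cycle inhibitor, had 21005 and 19644 normalized counts in the knockout libraries, against an implied wild-type mean of 18391. Both knockout libraries lay above the implied mean. Its log2 fold change in the authors' deposited table was 0.14 (SE 0.074, unadjusted p 0.0523), and it did not pass.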

How the data were processed

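RNA of 2 Malat1 knockout Th17 cultures was sequenced after ribosome depletion (KAPA Hyper Prep, Illumina HiSeq). The raw counts per gene were deposited by the authors, as were normalized counts, a signal equal to the count divided by 1 size factor per library. The log2 fold changes and standard errors, the Wald statistic (a score), and the p-values were deposited by the authors. The submitters' processing notes name STAR 2.6.1a, featureCounts, DESeq2 1.18.1 and mm10. The authors' name for the deposited fit holds the word multifactor, so the model may include factors beyond genotype. Those factors, the gene annotation and the strandedness were not given in the sources used here. A further 4 columns, with values of wild-type libraries outside the samples here, were not used.

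No new test between genotypes was run: a gene was called where the authors' DESeq2 adjusted p was under 0.05. The implied wild-type mean is 2 times the authors' mean over 4 libraries minus the knockout mean. A deposited fold change is a model estimate and need not equal the knockout mean over the implied wild-type mean. For Ltbp1 the deposited log2 fold change was -5.08, while the implied wild-type mean was 90.6-fold over the knockout level. The 95% intervals are the fold change ± a normal quantile times its standard error. Exon lengths and GC content (longest transcript) came from GENCODE M21 (GRCm38), matched by gene ID without version for 16371 of 16385 genes. The scripts used Python 3.11.15, scipy 1.17.1 and statsmodels 0.14.6, and the adjustment and GC trend were tested on simulated data. Members and lists were chosen with earlier results of these data known. Genes named outside the 10 are at most 3 per list with the smallest p and a mean of at least 50, apart from exceptions stated. A pair of genes that this rule names in the list of target genes is not reported here.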

Additional observations from a re-analysis of the deposited data

How the results depend on the processing

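The count of called genes stayed at 0 of the 10 and 0 of the 96 other pathway genes when p-values were adjusted over every gene, over genes with a mean of at least 50, after recentring fold changes on the median of genes with a mean of at least 500, or after a trend on GC content was subtracted (authors' DESeq2 standard errors, lowest adjusted p among the 10 genes 1.00). Among the 10 genes the smallest unadjusted p was 0.0996 (authors' DESeq2 Wald test), and adjustment cannot lower a p. Adjusting over other sets of genes could therefore give no count but 0 for the 10. Recentring moved each fold change by 0.0083 on the log2 scale and the GC trend moved them by at most 0.077. Skil changed sign under 2 settings, to 0.056 after the GC trend was subtracted and to 0.038 without replicate 1 (log2 ratio of the remaining replicate to the implied wild-type mean), and stood at -0.088 without replicate 2. By the same ratio, without replicate 1 and without replicate 2, Tgfbr1 stood at -0.45 and -0.74 and Smurf2 at -0.59 and -0.52. Tgfbr2 stood at 0.17 and 0.21, and Smad3 at 0.043 and 0.27, so the ratio of Smad3 rests largely on replicate 1. These ratios are not the measure of the deposited fold changes. Both Smurf2 values lie below its deposited -0.50. Scaling counts by the library total changed the mean levels by at most 0.11%. No paired analysis was possible because the samples form 1 group. No setting without a wild-type library could be run, since the wild-type columns were not used.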
